A study of Homo sapiens with 60 samples.

Results

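The 7 loci described here hold the genes of the cohesin subunits RAD21 and SMC3, of the cohesin regulators PDS5A, PDS5B, NIPBL and WAPL, and of CTCF, the DNA-binding protein at which cohesin halts. Members were all rows of 24 deposited CUT&RUN peak lists that overlapped one of these genes or the 25 kb on each side of it, whatever their reproducibility. The rule found 272 peaks among the 507516 deposited, of which 257 belonged to the H3K27Ac, RAD21 and PDS5A antibodies and 15 to the IgG control. In CUT&RUN a nuclease tethered to an antibody cuts out the DNA around the bound protein or mark, and that DNA is sequenced. H3K27Ac is an acetylated histone residue found at active promoters and enhancers. The RAD21 and PDS5A antibodies report where those proteins sit on chromatin, and below "antibody" or "gene" says which is meant.

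All cells were PC9, a human lung adenocarcinoma line. Rescue cells carried the METTL7A knockout and overexpressed METTL7A with MYC and FLAG tags, KO cells carried the METTL7A knockout alone, and WT cells had neither change. METTL7A is a methyltransferase-like protein. Each genotype was either untreated or grown under osimertinib, an inhibitor of the EGFR kinase, whose dose was escalated from 100 nM during 6 to 8 weeks (called treated below). Each combination of antibody, genotype and treatment had 2 samples. For the H3K27Ac, RAD21, PDS5A and IgG antibodies the authors joined them into 1 list, while the H2A samples had no list. Rescue is thus overexpression of a tagged protein, not repair of the endogenous gene, and the sources used here do not say how many clones were used.

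Cohesin is a ring built from SMC1, SMC3 and the kleisin RAD21 that holds sister chromatids together and folds chromatin into loops. NIPBL loads the ring onto DNA and drives loop extrusion, while WAPL, bound through PDS5A or PDS5B, releases it. CTCF bound to DNA stops the moving ring and so sets the anchors of many loops.

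The starts of these genes carried most of the peaks that passed, so promoter sequences are shown for 4 of them that differed in the data: the starts of the PDS5A and CTCF genes had RAD21-antibody peaks that passed in every condition, that of PDS5B had passing peaks in Rescue cells, and that of WAPL had none. They are RefSeq sequences on GRCh38.p14, from 250 bases before to 50 bases after the annotated start, 5′ to 3′ on the gene's strand, whereas all peak coordinates here are on GRCh37 and were not converted. Of the 7 genes, 6 had an entry, and RAD21 is named only. Capitals mark matches, on either strand, to 5 motifs that were chosen after the sequences were seen: GCCATTTTG (YY1), ACTACAANT (part of the ZNF143 site), AGGGGGCGC (a CTCF core), CCAAT and GGGCGG (the GC box).
PDS5A promoter, chr4:39977862-39978161, minus strand: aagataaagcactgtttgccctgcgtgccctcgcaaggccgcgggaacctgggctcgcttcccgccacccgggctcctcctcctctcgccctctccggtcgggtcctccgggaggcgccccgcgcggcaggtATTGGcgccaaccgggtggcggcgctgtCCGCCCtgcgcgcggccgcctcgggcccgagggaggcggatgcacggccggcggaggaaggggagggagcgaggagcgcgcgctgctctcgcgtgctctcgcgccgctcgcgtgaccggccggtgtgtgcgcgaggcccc
CTCF promoter, chr16:67562276-67562575, plus strand: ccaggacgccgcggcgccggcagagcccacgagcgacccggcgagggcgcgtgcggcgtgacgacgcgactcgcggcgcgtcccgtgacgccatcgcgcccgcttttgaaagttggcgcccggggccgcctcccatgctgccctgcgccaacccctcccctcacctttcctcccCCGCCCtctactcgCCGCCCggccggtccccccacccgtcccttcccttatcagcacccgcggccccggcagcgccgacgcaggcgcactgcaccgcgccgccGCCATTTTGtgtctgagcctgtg
PDS5B promoter, chr13:32586202-32586501, plus strand: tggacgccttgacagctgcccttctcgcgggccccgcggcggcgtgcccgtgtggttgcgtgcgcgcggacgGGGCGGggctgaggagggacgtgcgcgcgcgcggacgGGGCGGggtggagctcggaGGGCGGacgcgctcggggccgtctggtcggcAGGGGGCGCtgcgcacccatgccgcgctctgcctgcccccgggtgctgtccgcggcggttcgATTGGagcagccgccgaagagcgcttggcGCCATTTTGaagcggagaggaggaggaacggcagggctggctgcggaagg
WAPL promoter, chr10:86521743-86522042, minus strand: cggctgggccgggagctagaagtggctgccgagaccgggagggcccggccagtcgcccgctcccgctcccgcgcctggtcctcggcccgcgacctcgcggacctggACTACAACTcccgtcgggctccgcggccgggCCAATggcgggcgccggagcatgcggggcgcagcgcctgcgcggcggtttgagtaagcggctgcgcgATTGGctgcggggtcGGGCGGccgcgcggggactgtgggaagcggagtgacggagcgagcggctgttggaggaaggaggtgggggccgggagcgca
The YY1 letters occurred in 3 of the 6 promoters, those of CTCF, PDS5B and SMC3, and in 0.784% of the 27305 promoters in the table. Their first base lay at +28 in CTCF, at +1 in PDS5B and at −8 in SMC3. The ZNF143 letters were found in the WAPL promoter, at −144, and in 1.56% of all promoters, and the CTCF core in the PDS5B promoter, at −91, and in 1.87% of all. The CCAAT box occurred in 3 of the 6 (PDS5A, PDS5B and WAPL) and in 35.7% of all promoters, and the GC box in all 6 and in 44.6% of all. The GC content was 76.0% in PDS5A, 75.3% in CTCF, 75.7% in PDS5B, 76.3% in WAPL, 67.0% in NIPBL and 56.0% in SMC3, against a median of 58.3% over all promoters. No motif overlapped another, and a match is only a match of letters. Because the motifs were chosen after these sequences were seen, the shares over all promoters are no test of enrichment.

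A peak is called passing here when its global IDR, the irreproducible discovery rate that measures how well a peak's ranks agree between the replicates, was 0.05 or less, which is a deposited value of 1.301 or more on the −log10 scale. At the 7 loci 73 of 257 peaks of the 3 antibodies passed (28.4%). By antibody, 33 of 130 H3K27Ac peaks passed (25.4%, against 26.6% over the whole lists), 19 of 64 RAD21 peaks (29.7%, against 35.5%) and 21 of 63 PDS5A peaks (33.3%, against 32.6%). The shares at the loci were thus near those of the lists. In IgG 1 of 15 peaks passed (6.67%, against 3.02% over the whole lists).

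Most passing peaks of these loci sat at the gene starts. Of the 73 passing peaks, 61 (83.6%) reached within 1 kb of 1 of the 7 starts, and 49.2% of the 124 peaks deposited there passed. These windows make up 1.26% of the length of the loci. Because any overlap counts and peaks were up to 4599 bp wide, that share understates the stretch in which a peak is counted. In gene bodies 1 of 60 peaks passed (1.67%), upstream of the genes 3 of 36 (8.33%) and downstream 8 of 37 (21.6%). Shares by position were not computed over the whole lists. Whether this pattern is particular to these loci was therefore not tested. For H3K27Ac, 30 of 47 peaks passed at the starts and 1 of 55 in gene bodies. At the starts 18 of 42 RAD21-antibody and 13 of 35 PDS5A-antibody peaks passed. In gene bodies these antibodies had only 2 and 3 peaks, with 0 passing, so the antibodies cannot be ranked by this contrast. The PDS5A antibody had 13 passing peaks at the starts, 5 downstream of the genes and 3 upstream. Merging overlapping peaks of all lists gave 62 sites, of which 28 held a single peak of a single list and 10 held a passing peak, 6 of them at a gene start.

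**Figure D1:**
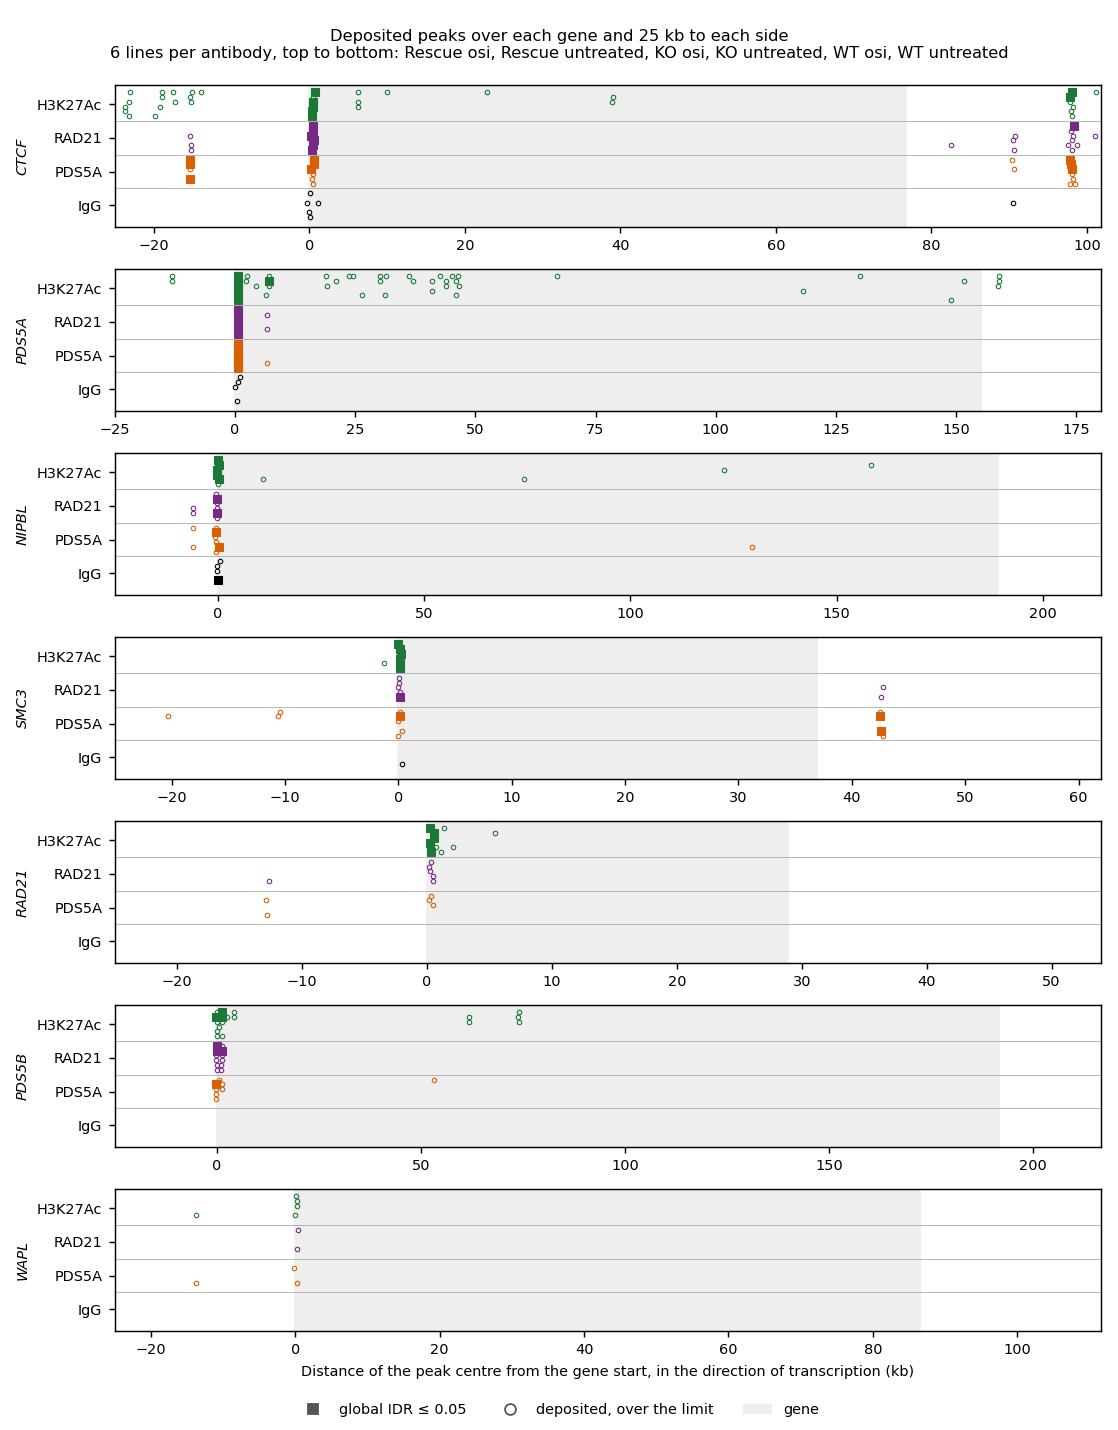
Every deposited peak over each gene (grey) and its flanks, by distance of the peak centre from the gene start in kb along the direction of transcription. Filled squares passed a global IDR of 0.05 and open circles did not, in 6 lines per antibody for the 6 cell conditions. The 61 passing peaks at the starts form 1 column per gene except at WAPL, where no peak passed. The H3K27Ac circles spread over the PDS5A and CTCF genes did not pass.

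The loci differed in how many peaks were deposited and how many passed. With the 3 antibodies together, 23 of 75 peaks passed at the CTCF gene, 19 of 60 at the PDS5A gene, 10 of 26 at SMC3, 9 of 27 at NIPBL, 7 of 38 at PDS5B, 5 of 21 at RAD21 and 0 of 10 at WAPL. Over the whole lists 26.6% of H3K27Ac peaks, 35.5% of RAD21-antibody peaks and 32.6% of PDS5A-antibody peaks passed. Whether any locus departed from these shares was not tested. Counting each gene start in each of the 6 conditions gave 42 cases. H3K27Ac passed in 29 of them, the RAD21 antibody in 17 and the PDS5A antibody in 13. The same starts are counted again in each condition, and no such count was made for other genes. All 3 antibodies passed together in 11 cases, H3K27Ac alone in 12, H3K27Ac with the RAD21 antibody in 5, H3K27Ac with the PDS5A antibody in 1, the RAD21 and PDS5A antibodies without H3K27Ac in 1, and none in 12.

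**Figure D2:**
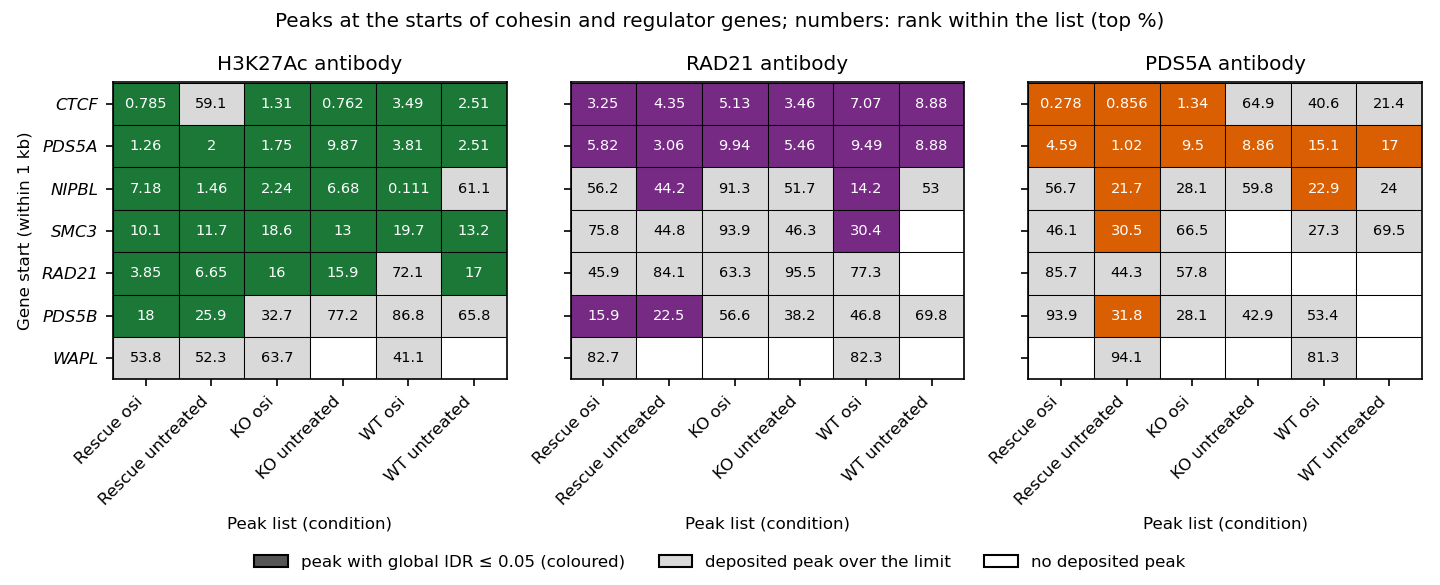
Peak at each gene start (rows) in each list (columns) for the 3 antibodies, coloured where it passed, grey where it was deposited but did not pass, white where none was deposited. Numbers give its rank within its own list, by the lower replicate value, as a top percentage. The PDS5A row is coloured in all 18 cells and the WAPL row in none.

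The values that follow are the −log10 p of a peak in each replicate, first and second column of the list, computed by the authors. They rank peaks within a list, and values of different lists are set side by side without a comparison of size.

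Among the core subunits, the RAD21 gene (chr8:117858173-117887105, minus strand) encodes the kleisin that closes the ring. The H3K27Ac peak at its start had 37.7 and 52.4 in treated Rescue cells, 31.3 and 44.5 in untreated Rescue cells, 14.7 and 13.7 in treated KO cells, 14.8 and 13.2 in untreated KO cells, 5.7 and 25.4 in treated WT cells, and 14.8 and 16.6 in untreated WT cells. It passed in all conditions but treated WT, where the replicates disagreed and the peak ranked in the top 72.1% of its list. Within their own lists the Rescue peaks ranked in the top 3.85% (treated) and 6.65% (untreated), the KO peaks in the top 16.0% and 15.9%, and the untreated WT peak in the top 17.0%. The RAD21 antibody itself gave a deposited peak at the RAD21 start in 5 conditions and none passed. Its highest values there were 14.5 and 10.6, in treated Rescue cells. The PDS5A antibody gave deposited peaks in the Rescue lists and in treated KO cells, none of which passed, and the IgG lists had 0 peaks at this locus.

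SMC3 (chr10:112327449-112364392, plus strand) encodes the SMC subunit whose acetylation stabilises the ring. H3K27Ac passed at its start in all 6 conditions, at 27.9 and 24.7 in treated Rescue cells, 28.4 and 24.5 in untreated Rescue cells, 19.8 and 12.8 in treated KO cells, 21.3 and 14.5 in untreated KO cells, 12.6 and 21.4 in treated WT cells, and 24.9 and 16.6 in untreated WT cells. These peaks ranked between the top 10.1% and the top 19.7% of their lists. The RAD21 antibody passed at the SMC3 start in treated WT cells, at 22.8 and 15.6, was deposited without passing in the 4 Rescue and KO lists, and had no deposited peak in untreated WT cells. The PDS5A antibody passed in untreated Rescue cells, at 16.8 and 15.5, and had no deposited peak in untreated KO cells. In treated WT cells it missed the limit closely, at 15.4 and 15.1 with a −log10 global IDR of 1.27. The only IgG peak deposited at SMC3 was at the start in treated WT cells, where it did not pass.

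Among the regulators, the PDS5A gene (chr4:39824483-39979576, minus strand), which encodes a HEAT-repeat protein that partners WAPL, was the one locus where all 3 antibodies passed in all 6 conditions. Its H3K27Ac peak had 55.8 and 56.0 in treated Rescue cells, 45.1 and 57.8 in untreated Rescue cells, 39.9 and 31.4 in treated KO cells, 16.5 and 23.5 in untreated KO cells, 23.5 and 28.2 in treated WT cells, and 31.1 and 42.9 in untreated WT cells. The PDS5A antibody, at the start of its own gene, had 83.3 and 40.4 in treated Rescue cells, 95.5 and 81.1 in untreated Rescue cells, 17.9 and 37.4 in treated KO cells, 13.4 and 37.3 in untreated KO cells, 85.6 and 22.0 in treated WT cells, and 12.9 and 35.2 in untreated WT cells. The RAD21 antibody had 48.8 and 38.5 in treated Rescue cells, 75.8 and 49.4 in untreated Rescue cells, 17.9 and 49.1 in treated KO cells, 40.5 and 27.6 in untreated KO cells, 66.3 and 31.6 in treated WT cells, and 91.1 and 15.4 in untreated WT cells. The PDS5A-antibody peak there was the only one of that antibody at the 7 loci to pass in untreated KO cells, a list of 911 passing peaks, and in untreated WT cells, where its −log10 global IDR of 1.34 was just inside the limit. IgG peaks lay at this start in both Rescue lists, in treated KO cells and in untreated WT cells, with values of 3.4 to 13.6, and none passed.

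PDS5B (chr13:33160564-33352157, plus strand) encodes the close paralogue of PDS5A, and its start had passing peaks in Rescue lists only, among the 18 lists of the 3 antibodies. In most lists the signal there was split into a peak across the start and another just inside the gene. The H3K27Ac peak across the start passed in untreated Rescue cells, at 14.9 and 21.8, and not in treated Rescue cells, at 11.9 and 8.1. The H3K27Ac peak just inside passed in both, at 20.1 and 17.0 in treated Rescue cells and 12.5 and 24.5 in untreated Rescue cells. H3K27Ac did not pass in the other lists, where the stronger of its peaks by the lower replicate value had 10.0 and 8.9 in treated KO cells, 11.2 and 4.8 in untreated KO cells, 4.7 and 5.4 in treated WT cells, and 6.2 and 11.4 in untreated WT cells. Across the start the RAD21 antibody passed at 22.6 and 27.9 in treated Rescue cells and 19.3 and 18.2 in untreated Rescue cells, and just inside it passed in untreated Rescue cells alone, at 17.5 and 16.8. Peaks of the RAD21 antibody across the start were deposited in the KO and WT lists too and did not pass, at 7.0 and 10.3 in treated KO cells, 16.2 and 9.8 in untreated KO cells, 11.0 and 21.1 in treated WT cells, and 19.3 and 5.3 in untreated WT cells. The PDS5A antibody passed at 15.2 and 22.9 in untreated Rescue cells and not at 9.7 and 4.1 in treated Rescue cells. At 11.4 and 16.6 in treated KO cells it was near the limit, with a −log10 global IDR of 1.19. Outside the Rescue lists peaks were still listed at this start in every condition for H3K27Ac and the RAD21 antibody, whereas the PDS5A antibody had 0 peaks there in untreated WT cells. The IgG lists had 0 peaks at PDS5B.

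NIPBL (chr5:36876861-37065921, plus strand), the loader, had a broad H3K27Ac peak at its start. Its values were 29.3 and 43.0 in treated Rescue cells, 48.3 and 54.5 in untreated Rescue cells, 29.5 and 29.6 in treated KO cells, 32.6 and 19.7 in untreated KO cells, 46.9 and 71.8 in treated WT cells, and 6.7 and 26.5 in untreated WT cells. It passed in all of these but untreated WT, where 1 replicate was low. In treated WT cells the peak was 4572 bp wide and ranked in the top 0.111% of its list. The RAD21 antibody passed there in untreated Rescue cells, at 37.9 and 11.1, and in treated WT cells, at 42.6 and 25.5, and was deposited without passing in the other 4 lists. The PDS5A antibody passed in the same conditions, at 26.6 and 19.9 in untreated Rescue cells and 50.9 and 17.1 in treated WT cells. In treated WT cells IgG also passed at the NIPBL start, at 10.8 and 14.9 and in the top 4.09% of its list, the only passing IgG peak at the 7 loci. IgG peaks that did not pass lay there in both Rescue lists and in treated KO cells.

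WAPL (chr10:88195013-88281572, minus strand), the release factor, had no passing peak in any list. At its start H3K27Ac was deposited at 9.8 and 7.1 in treated Rescue cells, 8.0 and 14.2 in untreated Rescue cells, 5.8 and 6.9 in treated KO cells, and 12.6 and 8.4 in treated WT cells, with no deposited peak in untreated KO or untreated WT cells. The RAD21 antibody had peaks there in treated Rescue and treated WT cells, and the PDS5A antibody in untreated Rescue cells and, at 23.4 and 5.7, in treated WT cells. The lists hold only peaks matched between replicates with −log10 p of at least 3, so a peak that is not listed may still have signal.

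CTCF (chr16:67596310-67673088, plus strand) held the most passing peaks of the 7 loci and also the most deposited peaks (23 of 75 passed). The RAD21 antibody passed at its start in all 6 conditions, at 52.1 and 49.7 in treated Rescue cells, 64.9 and 42.3 in untreated Rescue cells, 22.8 and 28.2 in treated KO cells, 40.7 and 33.1 in untreated KO cells, 61.1 and 36.4 in treated WT cells, and 100.7 and 15.4 in untreated WT cells. The PDS5A antibody passed there at 123.4 and 115.5 in treated Rescue cells, 86.9 and 100.8 in untreated Rescue cells, and 32.5 and 61.0 in treated KO cells, and ranked in the top 0.278%, 0.856% and 1.34% of those lists. It did not pass at 5.6 and 65.3 in untreated KO cells, 87.4 and 11.3 in treated WT cells, or 34.5 and 11.6 in untreated WT cells. In each of these lists the values of the replicates were far apart. Far-apart values also occurred in peaks that passed, such as the RAD21-antibody peak of untreated WT cells (100.7 and 15.4). H3K27Ac passed in 5 conditions, with 63.7 and 72.9 in treated Rescue cells, 39.9 and 34.0 in treated KO cells, 46.5 and 40.5 in untreated KO cells, 28.0 and 24.1 in treated WT cells, and 31.1 and 40.5 in untreated WT cells. It did not pass in untreated Rescue cells, again with unequal replicates, at 46.7 and 7.0. IgG peaks lay at this start in treated Rescue, treated KO, treated WT and untreated WT cells, and none passed.

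**Figure D3:**
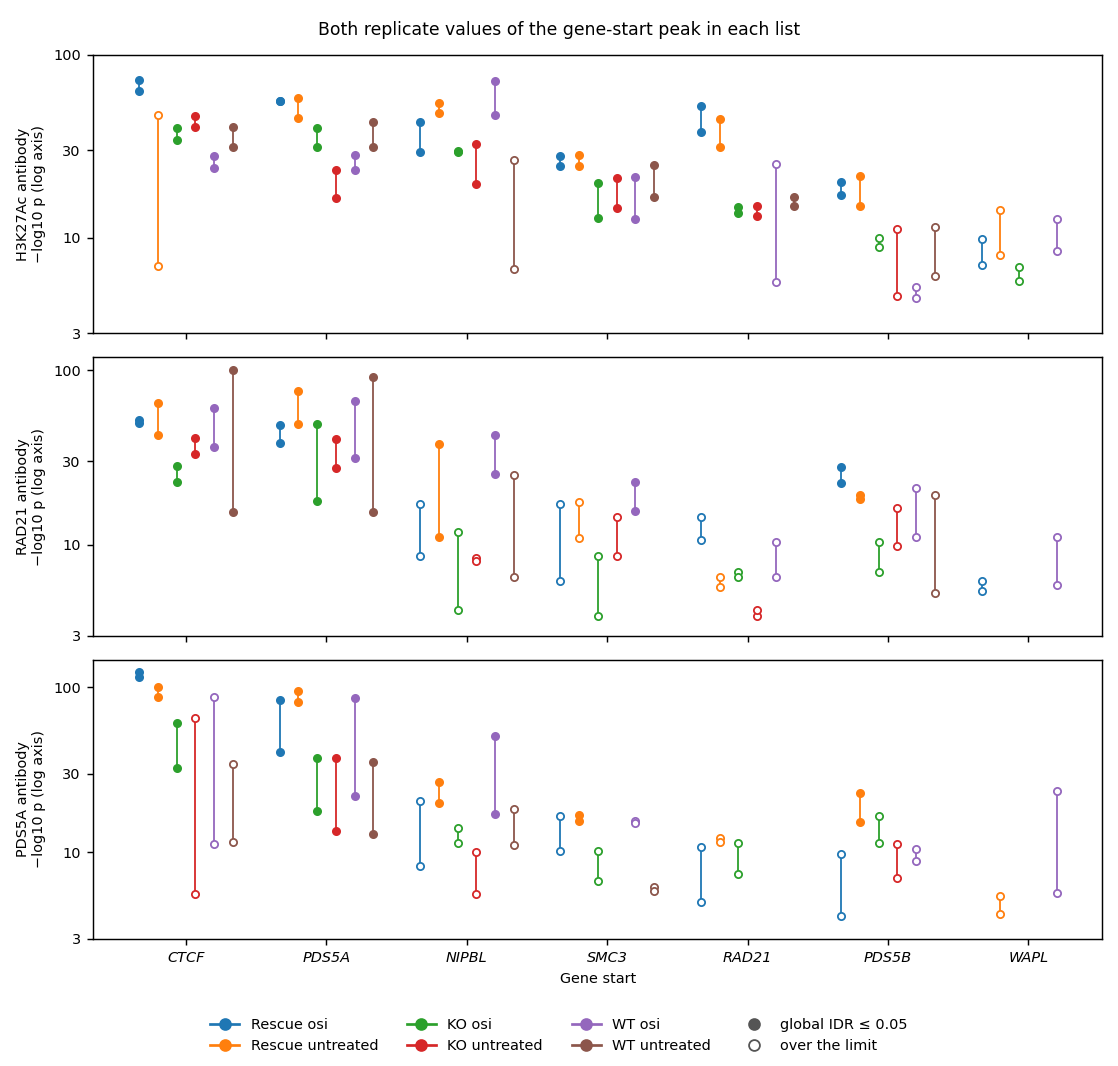
The −log10 p of both replicates of the gene-start peak (log axis), joined by a line, for each gene and condition, filled where the peak passed and open where it did not. Lines are long for several peaks that did not pass, such as the PDS5A antibody at CTCF in untreated KO cells (5.6 and 65.3) and H3K27Ac at CTCF in untreated Rescue cells (46.7 and 7.0). Some peaks that passed also have long lines, such as the RAD21 antibody at CTCF in untreated WT cells (100.7 and 15.4).

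Away from the gene starts 4 sites had a passing peak. Upstream of CTCF, at chr16:67580657-67581592 and −15.7 to −14.7 kb from the start, the PDS5A antibody passed in treated Rescue cells (35.5 and 19.6), untreated Rescue cells (15.1 and 11.8) and treated WT cells (18.9 and 10.7). The values for untreated Rescue and treated WT cells were just inside the limit, with −log10 global IDR of 1.35 and 1.31. No IgG peak lay there. Beyond the end of the CTCF gene, at chr16:67692961-67695600, all 3 antibodies had deposited peaks in all 6 conditions and none overlapped an IgG peak. There H3K27Ac passed in both Rescue lists, the RAD21 antibody in treated Rescue cells, and the PDS5A antibody in both Rescue lists (30.0 and 13.1 treated, 14.7 and 16.3 untreated) and in treated KO cells (17.1 and 18.5). In the RefSeq gene order the genes next after CTCF are CARMIL2, ACD and PARD6A. Without a GRCh37 annotation, whether this site lies at the start of one of them was not examined.

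Downstream of SMC3, at chr10:112369328-112370627, the PDS5A antibody passed in untreated Rescue cells (22.4 and 19.9) and treated WT cells (21.5 and 16.5). The H3K27Ac and IgG lists had 0 peaks at that site, and the RAD21 antibody had peaks in treated KO and treated WT cells that did not pass. Inside the PDS5A gene, at chr4:39971498-39973843 and 5.7 to 8.1 kb from the start, H3K27Ac passed in untreated Rescue cells (13.4 and 24.5). This was the only passing peak in a gene body, although 45 H3K27Ac peaks were deposited over the PDS5A locus.

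Passing peaks of the 2 cohesin-linked antibodies often coincided. Of the PDS5A-antibody peaks that passed at the 7 loci, 13 of 21 overlapped a passing RAD21-antibody peak of the same cells (61.9%, Wilson 95% interval 40.9 to 79.2%), against 63.3% over the whole lists. Of the RAD21-antibody peaks, 13 of 19 overlapped a PDS5A-antibody peak (68.4%, 46.0 to 84.6%), against 56.6%. Both intervals include the share of the whole lists. They treat the peaks as independent, although the same few sites, such as the PDS5A start, are counted again in several lists. Whether the loci differ from the whole lists was not tested.

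Many passing peaks at these loci lay where the IgG control also had a peak. A deposited IgG peak of any condition overlapped 22 of 33 passing H3K27Ac peaks (66.7%, against 43.6% over the lists), 15 of 19 RAD21-antibody peaks (78.9%, against 39.9%) and 12 of 21 PDS5A-antibody peaks (57.1%, against 35.2%). With IgG of the same cells it was 13 H3K27Ac peaks (39.4%, against 12.5%), 11 RAD21-antibody peaks (57.9%, against 14.4%) and 8 PDS5A-antibody peaks (38.1%, against 13.7%). All of these peaks lay at the starts of PDS5A, CTCF, NIPBL and SMC3, each counted again in several lists, so they are few independent sites, and the difference from the lists was not tested. Of the IgG peaks in the whole lists, 3.68% passed in treated Rescue cells, 1.05% in untreated Rescue cells, 1.22% in treated KO cells, 4.19% in untreated KO cells, 4.11% in treated WT cells and 0.946% in untreated WT cells. The IgG lists differed in length, with 7612 peaks in treated WT, 2703 in treated KO and 1057 in untreated WT cells. The others held 1051 in untreated Rescue, 896 in treated Rescue and 167 in untreated KO cells. Over whole lists, IgG of the same cells overlapped 36.3% of passing H3K27Ac peaks in treated WT and 1.36% in untreated KO cells. Overlap with IgG, or its absence, therefore depends on the list. The part of IgG background in the peaks at the starts of PDS5A, CTCF and NIPBL was not tested. The starts of RAD21, PDS5B and WAPL and the site beyond CTCF held no IgG peak.

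The number of passing peaks at the loci is set here beside the share passing in each whole list. For H3K27Ac, 7 of 36 peaks passed at the loci in treated Rescue cells (29.3% of the whole list), 8 of 29 in untreated Rescue cells (36.6%), 5 of 23 in treated KO cells (21.7%), 5 of 12 in untreated KO cells (23.2%), 4 of 18 in treated WT cells (23.1%) and 4 of 12 in untreated WT cells (22.6%). For the RAD21 antibody, 4 of 9 passed in treated Rescue cells (42.2%), 5 of 9 in untreated Rescue cells (37.2%), 2 of 12 in treated KO cells (24.7%), 2 of 10 in untreated KO cells (28.2%), 4 of 16 in treated WT cells (42.9%) and 2 of 8 in untreated WT cells (23.8%). For the PDS5A antibody, 4 of 13 passed in treated Rescue cells (42.2%), 8 of 14 in untreated Rescue cells (41.8%), 3 of 10 in treated KO cells (22.3%), 1 of 5 in untreated KO cells (9.87%), 4 of 14 in treated WT cells (36.1%) and 1 of 7 in untreated WT cells (12.2%). The Rescue and treated WT lists, which were the longest for the RAD21 and PDS5A antibodies, held the most passing peaks of those antibodies at the loci. Each group gave 1 list, so these differences have no replicate check and no p-value, and depth per sample is unknown.

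Osimertinib against no treatment was compared within each genotype as the ratio of passing peaks at the loci, with an exact 95% interval that covers counting error only. For the PDS5A antibody the ratio was 0.5 in Rescue cells (0.11 to 1.87, against 0.816 for the whole lists), 3.0 in KO cells (0.241 to 157, against 4.49) and 4.0 in WT cells (0.396 to 197, against 7.16). For the RAD21 antibody it was 0.8 in Rescue cells (0.159 to 3.72, against 1.21), 1.0 in KO cells (0.0725 to 13.8, against 0.814) and 2.0 in WT cells (0.287 to 22.1, against 4.51). For H3K27Ac it was 0.875 in Rescue cells (0.27 to 2.76, against 0.917), 1.0 in KO cells (0.23 to 4.35, against 1.55) and 1.0 in WT cells (0.186 to 5.37, against 2.0). Every interval included 1 and the ratio of the whole lists.

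The peaks behind these ratios were at named sites. Below, a peak is called gained when it passed in the first list named and overlapped no passing peak of the second, and lost in the converse case, whether or not a peak that failed the limit was deposited. In treated against untreated WT cells, 3 of 4 PDS5A-antibody peaks were gained (88.0% over the list), those at the NIPBL start, upstream of CTCF and downstream of SMC3, and 0 of 1 was lost (14.2%). In the same cells 2 of 4 RAD21-antibody peaks were gained (80.6%), at the starts of NIPBL and SMC3, and 0 of 2 lost (12.2%). For H3K27Ac, 1 of 4 was gained (68.5%), at NIPBL, and 1 of 4 lost (37.1%), at the RAD21 start. The NIPBL start was thus gained with all 3 antibodies, and it is also where treated WT cells had the passing IgG peak.

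In treated against untreated KO cells, 2 of 3 PDS5A-antibody peaks were gained (81.5%), at the CTCF start and beyond the CTCF gene, and 0 of 1 was lost (17.3%). No RAD21-antibody peak was gained (0 of 2, against 30.7%) or lost (0 of 2, against 43.6%), and no H3K27Ac peak was gained (0 of 5, against 55.0%) or lost (0 of 5, against 30.0%). In treated against untreated Rescue cells, 4 of 8 PDS5A-antibody peaks were lost (35.9%), at the starts of NIPBL, PDS5B and SMC3 and downstream of SMC3, and 0 of 4 were gained (21.5%). In Rescue cells 1 of 4 RAD21-antibody peaks was gained (36.6%), beyond CTCF, and 2 of 5 were lost (23.3%), at NIPBL and PDS5B. For H3K27Ac in Rescue cells, 1 of 7 was gained (28.6%), at the CTCF start, and 2 of 8 were lost (35.4%), across the PDS5B start and inside PDS5A.

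**Figure D4:**
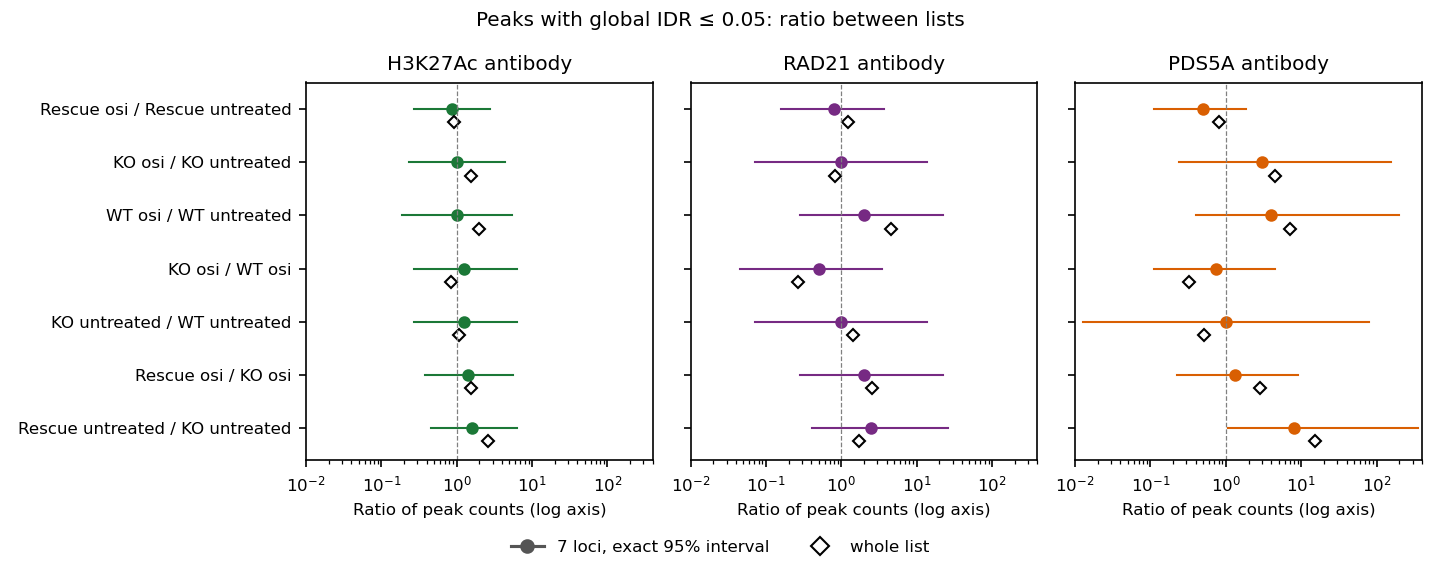
Ratio of the number of passing peaks between lists (log axis) at the 7 loci, as points with exact 95% intervals, and over the whole lists, as diamonds, for 7 pairs of lists and 3 antibodies. Of the 21 intervals, only that of the PDS5A antibody in untreated Rescue against untreated KO cells (8.0, from 1.07 to 355) leaves out 1. The intervals are not corrected for their number.

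METTL7A knockout was compared with WT under each treatment. Treated KO against treated WT cells had ratios of 0.75 for the PDS5A antibody (0.11 to 4.43, against 0.325 for the lists), 0.5 for the RAD21 antibody (0.0452 to 3.49, against 0.263) and 1.25 for H3K27Ac (0.269 to 6.3, against 0.833). In untreated KO against untreated WT cells they were 1.0 for the PDS5A antibody (0.0127 to 78.5, against 0.518), 1.0 for the RAD21 antibody (0.0725 to 13.8, against 1.45) and 1.25 for H3K27Ac (0.269 to 6.3, against 1.08). Every interval included 1.

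Under treatment, 3 of 4 PDS5A-antibody peaks of WT cells were lost in KO cells (73.5%), at the NIPBL start, upstream of CTCF and downstream of SMC3, and 2 of 3 of KO cells were gained (18.2%), at the CTCF start and beyond CTCF. At the CTCF start the treated WT list also had a peak, which did not pass, at 87.4 and 11.3. For the RAD21 antibody 2 of 4 were lost (77.0%), at NIPBL and SMC3, and 0 of 2 gained (11.9%). For H3K27Ac 0 of 4 were lost (55.4%) and 1 of 5 was gained (46.4%), at the RAD21 start. Without treatment, KO and WT cells had the same passing sites for the PDS5A antibody (0 of 1 gained, against 28.6%, and 0 of 1 lost, against 62.9%), which was the PDS5A start. The RAD21 antibody likewise showed 0 of 2 gained (47.3%) and 0 of 2 lost (23.6%), the sites being the PDS5A and CTCF starts. For H3K27Ac 1 of 5 was gained (40.9%), at NIPBL, and 0 of 4 were lost (36.5%).

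METTL7A overexpression in the knockout was compared with the knockout alone. Untreated Rescue against untreated KO cells had ratios of 8.0 for the PDS5A antibody (1.07 to 355, against 15.4 for the lists), 2.5 for the RAD21 antibody (0.409 to 26.3, against 1.71) and 1.6 for H3K27Ac (0.462 to 6.22, against 2.63). Treated Rescue against treated KO cells had 1.33 for the PDS5A antibody (0.226 to 9.1, against 2.8), 2.0 for the RAD21 antibody (0.287 to 22.1, against 2.54) and 1.4 for H3K27Ac (0.382 to 5.59, against 1.56). The PDS5A-antibody ratio without treatment had the only interval that left out 1, and the interval included the ratio of the whole lists. It was 1 of 21 intervals, which were not corrected for their number. The intervals treat peaks as independent, although several of the 8 peaks share the CTCF and SMC3 loci. The ratio rested on 8 peaks against 1. It was 2.0 (2 against 1) in lists of equal length and 2.8 (14 against 5) with every deposited peak.

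Without treatment, 7 of 8 PDS5A-antibody peaks of Rescue cells were gained over KO cells (94.2%), at the starts of CTCF, NIPBL, PDS5B and SMC3, upstream of and beyond CTCF and downstream of SMC3, and 0 of 1 was lost (10.1%). Of these 7, the peaks at the SMC3 start, downstream of SMC3 and upstream of CTCF had no deposited peak in untreated KO cells, even one that failed the limit. For the RAD21 antibody 3 of 5 were gained (50%), 1 at NIPBL and 2 at PDS5B, and 0 of 2 lost (13.9%). For H3K27Ac 4 of 8 were gained (69.4%), 2 at PDS5B, 1 inside PDS5A and 1 beyond CTCF, and 1 of 5 was lost (18.3%), at the CTCF start. Under treatment, 1 of 4 PDS5A-antibody peaks was gained (69.1%), upstream of CTCF, and 0 of 3 lost (13.0%). The RAD21 antibody gained 2 of 4 (65.0%), at PDS5B and beyond CTCF, with 0 of 2 lost (10.8%), and H3K27Ac gained 2 of 7 (51.4%), at PDS5B and beyond CTCF, with 0 of 5 lost (24.2%). The PDS5B start was gained with H3K27Ac and the RAD21 antibody under both treatments.

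Over the 7 pairs of lists and both directions, in which the 73 passing peaks are counted once for each pair they enter, 164 were looked up and 48 had no passing counterpart. By antibody this was 14 of 76 for H3K27Ac (18.4%, against 45.1% over the whole lists), 12 of 42 for the RAD21 antibody (28.6%, against 48.5%) and 22 of 46 for the PDS5A antibody (47.8%, against 58.5%). No deposited counterpart at all was found for 7 (4.27%, against 14.2%). Besides the 3 of untreated Rescue cells named above, these were the upstream CTCF peak of the PDS5A antibody in treated against untreated WT cells, the downstream SMC3 peak of that antibody in treated WT against treated KO cells, the SMC3-start peak of the RAD21 antibody in treated against untreated WT cells, and the H3K27Ac peak inside PDS5A in untreated Rescue against untreated KO cells.

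When the lists of an antibody were shortened to equal length by the lower replicate value, the RAD21 antibody had 2 passing peaks at the loci in each of its 6 lists of 3691 peaks, and these were at the PDS5A and CTCF starts each time. In lists of 5108 peaks H3K27Ac had 5 in treated Rescue, 4 in untreated Rescue, 3 in treated KO, 5 in untreated KO, 3 in treated WT and 4 in untreated WT cells. In lists of 911 peaks the PDS5A antibody had 1 in treated Rescue, 2 in untreated Rescue, 1 in treated KO, 1 in untreated KO, and 0 in treated and untreated WT cells.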

How the data were processed

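CUT&RUN was run on PC9 cells in 30 groups of 2 samples, 60 in all. The 48 samples with H3K27Ac, RAD21, PDS5A and IgG antibodies stood behind the 24 lists, and the 12 H2A samples were not used here. The submitters' processing notes name deepTools 3.5.1, bedtools 2.30, MACS2 2.2.7.1, SAMtools 1.16, Bowtie2 2.4.2, FastQC and Trimmomatic, with GRCh37 as the build. Tool settings, the peak threshold and the IDR version are not given in the sources used here. Every list deposited by the authors joined both replicates and held the −log10 p of each replicate and the −log10 of the global IDR, not limited by IDR. Which sample each replicate column holds is not given. Read totals are not part of the lists, so the depth of each sample is unknown. Whether the replicates were separate cultures is not stated either.

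All peaks on chromosomes 1 to 22 and X were used. A peak belonged to a locus by an overlap of 1 bp or more with the gene or its 25 kb flanks, and to a gene start when it reached within 1 kb of it. Of overlapping peaks at a start, the one with the highest lower replicate value was described. A peak was set against another list by an overlap of 1 bp. No test was made: peak counts come as 1 per group, and the replicate −log10 p values exist only for matched peaks and were not taken to be on 1 scale between lists. Ratios of counts carry exact 95% intervals and shares Wilson intervals, both of counting error only. All 7 genes are named, with each locus's start, its site away from the start that passes most often, and sites that pass in 1 list and have no peak in the other. Members, lists and rule were chosen with earlier results of these data known. Settings varied were the IDR limit (0.01, or none), the flanks, the window and overlap, list length, the removal of IgG peaks, and peak boundaries taken from single replicates. No GRCh37 annotation was at hand, so SMC1A, the STAG genes and other cohesin genes were not analysed here. Gene starts follow the given coordinates, with strands from RefSeq and, for RAD21, from general knowledge. The software was matplotlib 3.10.9, scipy 1.17.1, pandas 2.3.3 and numpy 2.4.6 under Python 3.11.15. The overlap code matched 2000 of 2000 simulated regions.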

Additional observations from a re-analysis of the deposited data

Results flagged for a closer look

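The count of passing peaks at the 7 loci under osimertinib, relative to untreated cells, lay on opposite sides of 1 in Rescue and WT cells for both cohesin-linked antibodies, and in Rescue and KO cells for the PDS5A antibody. For the PDS5A antibody the ratio was 0.5 in Rescue cells (4 peaks treated, 8 untreated), 3.0 in KO cells (3 and 1) and 4.0 in WT cells (4 and 1), against 0.816, 4.49 and 7.16 for the whole lists. For the RAD21 antibody it was 0.8 in Rescue cells (4 and 5), 1.0 in KO cells (2 and 2) and 2.0 in WT cells (4 and 2), against 1.21, 0.814 and 4.51. At a global IDR of 0.01 the Rescue ratio was 1.0 for both antibodies, and in lists of equal length the RAD21-antibody ratio was 1.0 in all 3 genotypes. These differences between genotypes were not tested, since each group gave 1 list.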

How the results depend on the processing

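Boundaries taken from either replicate alone gave the main counts in all 42 cases and so test nothing. The other settings gave 108 values of the 21 count ratios. Of these 6 lay on the other side of 1 from the main value, and 20 were 1 where the main value was not. With every deposited peak, treated Rescue over treated KO cells was 0.75 for the RAD21 antibody (9 against 12, main value 2.0), and untreated Rescue over untreated KO cells 0.9 (9 against 10, main value 2.5). With lists of equal length, untreated Rescue over untreated KO cells was 0.8 for H3K27Ac (4 against 5, main value 1.6). For H3K27Ac in treated over untreated Rescue cells (main value 0.875) it was 1.25, as at a global IDR of 0.01, and 1.24 with every deposited peak. The ratio of 8.0 for the PDS5A antibody in untreated Rescue over untreated KO cells was 2.0 with lists of equal length and 2.8 with every deposited peak. With IgG peaks left out, treated over untreated WT cells was 0 for H3K27Ac (0 against 1, main value 1.0), and the RAD21 antibody kept 2 peaks in each Rescue list and 0 in the KO and WT lists. The cause was not tested. At a global IDR of 0.01, H3K27Ac passed in 18 gene-start cases (29 at 0.05). With every deposited peak, the RAD21 antibody had 36 cases (17) and the PDS5A antibody 33 (13). Set against every deposited peak of the other list, a setting chosen after seeing the data, peaks without a counterpart numbered 1 for H3K27Ac (14), 1 for the RAD21 antibody (12) and 5 for the PDS5A antibody (22). The share of PDS5A-antibody peaks on a RAD21-antibody peak was 80.0% at a global IDR of 0.01 (61.9%), and with IgG of the same cells alone 43.8% of passing peaks lay on an IgG peak (67.1%). In 18 cases a denominator of 0 gave no ratio. No paired analysis was possible because the replicate columns carry no replicate number.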
